A study of Mus musculus with 26 samples.

Results

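Peroxisomes are small organelles bounded by a single membrane, and the 36 genes described here were listed as genes of their biogenesis, membrane and enzymes. Where in the cell the protein of each gene acts was not measured. They were chosen by name: every gene in the list of peroxins, peroxisomal membrane transporters and peroxisomal enzymes was looked up by symbol in the GRCm38 annotation. All 36 of 36 were found among the 55487 genes of the count table, and all 36 passed the filter on low counts. By role they are 13 peroxins, 12 enzymes of fatty acid oxidation, 7 membrane transporters or related membrane proteins, 3 enzymes of ether lipid synthesis, and catalase. RNA was sequenced from 2 kinds of macrophage taken from mouse lungs at a set time after lipopolysaccharide (LPS), a cell wall component of Gram-negative bacteria, was placed in the trachea. BM-derived macrophages (BM), which enter the lung from the bone marrow, were taken at day 1 (5 libraries), day 3 (4 libraries) and day 7 (3 libraries), all after LPS. Resident alveolar macrophages (AM), which occupy the airspaces of the healthy lung, were taken without treatment (day 0, 3 libraries) and at day 1 (4 libraries), day 3 (3 libraries) and day 7 (4 libraries) after LPS. There were no untreated BM libraries. The labels name no strain, sex, LPS dose or sorting gate, and the 3 day 0 libraries alone carry the word Young. They do not say whether each library came from a separate mouse, so the tests below measure the spread between libraries.

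Fatty acids with very long or branched chains are shortened in peroxisomes, where an oxidase makes hydrogen peroxide in the first step, a multifunctional enzyme carries out the middle steps and a thiolase cuts off acetyl-CoA. Catalase breaks the hydrogen peroxide down. Peroxins insert the membrane proteins, carry the enzymes in from the cytosol and divide the organelle. Alveolar macrophages take up and break down pulmonary surfactant, a lipid-rich film, and peroxisomes also start the synthesis of the ether lipids found in that film and in cell membranes.

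Library totals ranged from 9176202 to 80816742 counts, and the day 0 AM libraries were the deepest. Values below are TMM-scaled CPM, that is, counts set on 1 scale for library depth with a correction for differences in composition between libraries. The summed CPM of 15 alveolar macrophage markers was 1333 to 2020 in BM day 1 libraries, 2396 to 4642 in BM day 3 libraries and 3837 to 17199 in BM day 7 libraries, against 20365 to 35313 in AM libraries. The 12 monocyte markers summed to 1970 to 5623 CPM in BM libraries, against 745 to 2708 in AM libraries. Single genes could make up most of a sum. Chil3 had 10238 of the 16311 CPM of alveolar macrophage markers in BM day 7 library 1. Nr4a1 had 789 of the 1022 CPM of monocyte markers in AM day 0 library 1. Some libraries stood apart. BM day 3 library 1 had 27542 CPM of fibroblast and endothelial markers (90.0 to 370.2 in the other BM day 3 libraries) and 3207 CPM of neutrophil markers (438 to 575 in the others). Most of the first sum was Col1a1 (14976 CPM) and Col1a2 (12125 CPM), while Pecam1 was at 38.0 CPM and Dcn and Cldn5 at 0. The second was led by S100a9 (1251 CPM) and S100a8 (959 CPM). Retnlg and Ngp were at 208 and 154 CPM, and Ly6g, Ltf, Elane and Mpo at 0. In this library 14 of the 36 genes were at 0 counts. BM day 1 library 3 also had 14 of the 36 at 0. At most 7 of them were at 0 in any other library. BM day 7 library 3 had 3837 CPM of alveolar macrophage markers, against 16311 and 17199 CPM in the other BM day 7 libraries. The level of 4 Y-linked genes together was 7.75 to 38.4 CPM in BM day 1, 0.0479 to 168.7 CPM in BM day 3 and 0.103 to 3.81 CPM in BM day 7 libraries. It was 146 to 227 CPM in AM day 0, 1 and 3 libraries and 0.152 to 4.09 CPM in AM day 7 libraries. The X-linked gene Xist had 472 to 910 CPM in BM day 1 and 280 to 328 CPM in AM day 7 libraries. It was at 0 in all AM day 1 libraries, at 0.450 to 20.8 CPM in AM day 3 libraries and at 144, 0 and 0 CPM in AM day 0 libraries. The sex of the mice therefore cannot be told apart from the group in BM against AM at day 1, or in AM day 7 against AM day 0 or 3. The AM day 0 libraries share a number prefix that no other group has, as do the BM day 1 libraries, so for these groups a batch and the group cannot be told apart. The other libraries share 1 prefix, under which their numbers fall into a lower and a higher range.

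In untreated AM, 5 of the 12 oxidation enzymes and catalase held the first 6 places among the 36, and the other oxidation enzymes stood lower. Per length of exon, as reads per kilobase of exon scaled like CPM (RPKM), the thiolase gene Acaa1b stood first at 120.2 ± 22.8 RPKM (SD, n = 3), followed by Ech1, a dienoyl-CoA isomerase, at 95.9 ± 15.6 RPKM. The multifunctional enzyme Hsd17b4 had 81.1 ± 11.01 RPKM, the sterol carrier and thiolase gene Scp2 73.0 ± 4.14 RPKM and catalase (Cat) 72.0 ± 2.31 RPKM, and these last 3 were within their spread of each other. The second thiolase gene, Acaa1a, had 49.9 ± 4.88 RPKM and the fatty acid transporter Abcd2 33.5 ± 12.8 RPKM. Pex16, which inserts membrane proteins, was the most abundant peroxin over all groups and had 21.1 ± 3.46 RPKM in untreated AM. Far1, the reductase that makes the fatty alcohol for ether lipids, had 21.5 ± 4.00 RPKM. At the other end, Hacl1, a lyase of alpha-oxidation, had 0.108 ± 0.0800 RPKM.

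The order was not the same in every group. Acaa1a stood first in BM day 1 libraries at 35.7 ± 8.01 RPKM (SD, n = 5), and in AM day 1 libraries at 69.4 ± 9.89 RPKM (SD, n = 4), while Acaa1b had 1.13 ± 0.989 RPKM in BM day 1 libraries and 32.1 ± 25.2 RPKM in AM day 1 libraries. In AM day 7 libraries Ech1, Acaa1b and Acaa1a had 97.9 ± 7.00, 89.7 ± 17.6 and 84.0 ± 5.08 RPKM (SD, n = 4), and the ranges of Acaa1b overlapped those of both others.

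The summed level of each class was compared library by library. The 12 oxidation enzymes summed to 476 ± 53.5 CPM in BM day 1 libraries, 701 ± 205 CPM in BM day 3 libraries and 828 ± 162 CPM in BM day 7 libraries. In AM they summed to 1523 ± 118 CPM at day 0, 936 ± 125 CPM at day 1, 1132 ± 74.9 CPM at day 3 and 1534 ± 74.7 CPM at day 7. No BM library of any day reached an AM library of the same day. The 13 peroxins summed to 272 ± 56.3, 285 ± 74.4 and 320.1 ± 7.34 CPM in BM at days 1, 3 and 7. In AM they summed to 338 ± 30.2, 388 ± 18.5, 375 ± 33.3 and 397 ± 28.6 CPM at days 0, 1, 3 and 7, where the day 1 mean was not below that of day 0. The 7 transporters summed to 91.2 ± 19.8, 120.3 ± 42.0 and 277 ± 4.92 CPM in BM at days 1, 3 and 7, and to 375 ± 85.9, 252 ± 30.4, 305 ± 54.3 and 409 ± 20.8 CPM in AM at days 0, 1, 3 and 7. The transporter sums of BM lay below every AM library of the same day. The peroxin sums did so at day 3 (at most 337.8 CPM in BM, against at least 349.7 CPM in AM) and at day 7 (at most 326.6 CPM in BM, against at least 359.7 CPM in AM), and overlapped at day 1. The mean log2(CPM + 1) over the 13 peroxins was 3.57 ± 0.43, 3.39 ± 1.01 and 4.30 ± 0.06 in BM at days 1, 3 and 7. In AM on those days it was 4.36 ± 0.20, 4.52 ± 0.16 and 4.50 ± 0.07. Over the 12 oxidation enzymes it was 3.65 ± 0.31, 4.04 ± 0.55 and 4.87 ± 0.42 in BM. The AM values were 4.96 ± 0.33, 5.25 ± 0.12 and 5.68 ± 0.06. These sums and means describe the classes and were not tested.

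**Figure D1:**
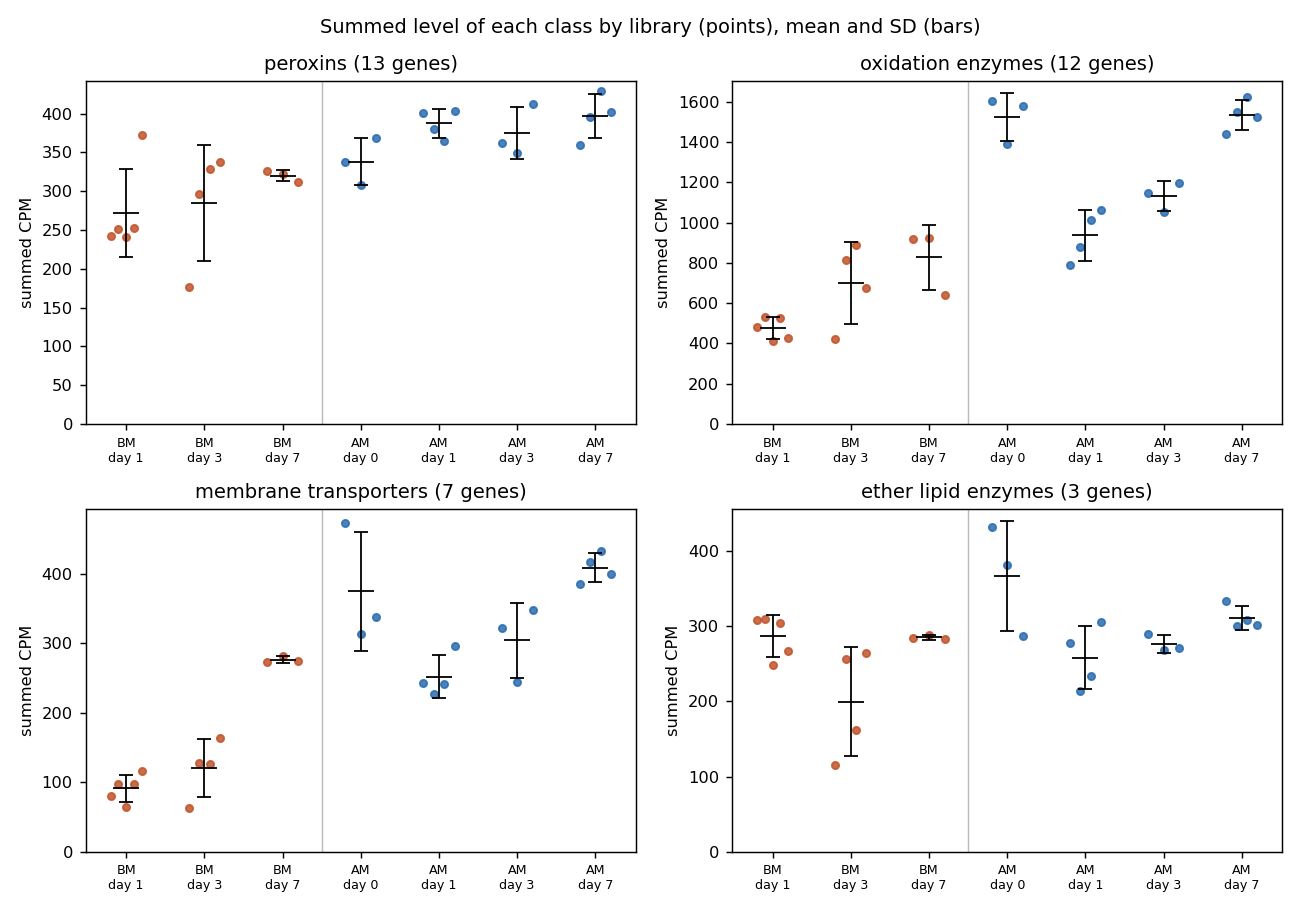
Summed level (CPM, linear axes from 0) of the 13 peroxins, 12 oxidation enzymes, 7 membrane transporters and 3 ether lipid enzymes. Each point is a library, bars give the mean and SD, and BM groups (orange) stand left of AM groups (blue); the oxidation enzymes run from 476 CPM in BM day 1 to 1534 CPM in AM day 7, while the peroxins run from 272 to 397 CPM.

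The promoters of 5 genes are shown because their transcripts differ between BM and AM in the comparisons that follow. The sequences are those of RefSeq on GRCm38.p6 and cover 250 bases before the transcription start and 50 after it, written 5′ to 3′ on the strand of the gene. Capitals mark the GC box GGGCGG and the CCAAT box CCAAT, on either strand. The windows are chr7:79743082-79743381 (minus strand) for Pex11a, chr9:119341044-119341343 (plus strand) for Acaa1a, chr9:119157044-119157343 (minus strand) for Acaa1b, chr7:28825088-28825387 (plus strand) for Ech1 and chr1:72284272-72284571 (minus strand) for Pecr.
Pex11a: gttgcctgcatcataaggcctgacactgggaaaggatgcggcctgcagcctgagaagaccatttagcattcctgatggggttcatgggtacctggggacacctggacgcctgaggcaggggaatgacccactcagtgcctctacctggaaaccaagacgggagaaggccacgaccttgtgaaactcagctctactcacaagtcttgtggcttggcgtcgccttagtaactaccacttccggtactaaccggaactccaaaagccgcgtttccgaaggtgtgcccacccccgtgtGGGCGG
Acaa1a: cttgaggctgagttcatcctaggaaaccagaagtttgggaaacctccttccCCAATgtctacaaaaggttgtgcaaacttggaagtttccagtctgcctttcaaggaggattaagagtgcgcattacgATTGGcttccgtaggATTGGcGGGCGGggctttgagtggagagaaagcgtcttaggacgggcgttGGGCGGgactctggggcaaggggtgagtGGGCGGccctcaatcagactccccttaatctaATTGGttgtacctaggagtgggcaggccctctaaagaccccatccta
Acaa1b: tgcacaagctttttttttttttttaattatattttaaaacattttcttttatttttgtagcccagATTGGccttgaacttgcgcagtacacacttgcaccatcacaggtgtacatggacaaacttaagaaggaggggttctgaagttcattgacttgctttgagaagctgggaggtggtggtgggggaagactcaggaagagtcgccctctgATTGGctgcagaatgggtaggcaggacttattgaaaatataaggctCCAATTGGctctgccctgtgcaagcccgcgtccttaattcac
Ech1: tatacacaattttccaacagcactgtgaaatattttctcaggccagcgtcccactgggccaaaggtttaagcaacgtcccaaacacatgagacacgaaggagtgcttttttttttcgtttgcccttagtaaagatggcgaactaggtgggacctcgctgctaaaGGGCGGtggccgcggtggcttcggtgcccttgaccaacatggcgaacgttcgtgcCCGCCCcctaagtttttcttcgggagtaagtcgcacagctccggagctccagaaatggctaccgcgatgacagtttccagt
Pecr: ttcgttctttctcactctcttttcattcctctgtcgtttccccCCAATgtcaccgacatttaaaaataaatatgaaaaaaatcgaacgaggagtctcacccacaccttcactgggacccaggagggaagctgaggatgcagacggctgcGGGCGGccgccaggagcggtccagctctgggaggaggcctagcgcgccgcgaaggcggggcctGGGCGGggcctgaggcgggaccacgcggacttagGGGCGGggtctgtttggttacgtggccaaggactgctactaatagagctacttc
The promoter of Acaa1a held 3 GC boxes and 4 CCAAT boxes, and that of Acaa1b held no GC box and 4 CCAAT boxes, the last 2 of which overlap on opposite strands. The promoters of Pecr, Ech1 and Pex11a held 3, 2 and 1 GC boxes. Of the 36 genes, 29 had a promoter in the table used. At least 1 GC box on either strand was found in 23 of these 29 genes (24 of their 33 promoter windows), against 35.7% of all 32851 windows, and a CCAAT box in 13 of 29 (14 of 33 windows), against 37.4%. The median GC content was 56.3% for the 14 windows of peroxins and 57.15% for the 10 of oxidation enzymes, against 52.7% for all windows. The E-box CACGTG was found in Gnpat and Mpv17 alone (7.15% of all windows).

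At day 1, 6 of the 12 oxidation enzymes, the transporter gene Abcd2, the division factor Pex11a and catalase were lower in BM than in AM, and Agps was the 1 gene that passed the test in the higher direction. In the fit to all 26 libraries with edgeR's quasi-likelihood test, 10 of the 36 passed an adjusted p under 0.05, 1 higher and 9 lower, where 29% of all 17143 genes tested passed, 15.2% higher and 13.8% lower. The share called among the 36 was thus close to the share among all genes, and 9 of the 10 were in the lower direction. The median log2 fold change was -0.81 for the 36 genes and 0.06 for all genes. By class, 1 of 13 peroxins, 6 of 12 oxidation enzymes, 1 of 7 transporters, 1 of 3 ether lipid enzymes and catalase passed. Without BM day 1 library 3 and BM day 3 library 1, 16 of the 36 passed (1 higher, 15 lower), where 40.4% of all genes did. In bulk RNA, fewer cells of a type and less RNA per cell cannot be told apart.

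Among the peroxins, Pex11a (ENSMUSG00000030545, chr7:79735957-79743131), which promotes the growth and division of peroxisomes, had 0, 1.88, 0, 1.24 and 0 CPM in the 5 BM day 1 libraries, against 34.7, 46.1, 51.7 and 39.8 CPM in the 4 AM day 1 libraries. It was near 0 in all BM libraries and the groups did not overlap. The log2 fold change was -6.07 ± 0.91 (SE, adjusted p = 1.24e-05). Pex16 had 27.9, 17.8, 0, 26.3 and 30.98 CPM in BM, against 51.3, 69.7, 47.2 and 57.6 CPM in AM. All BM libraries were below all AM libraries, with BM library 3 at 0, but the change of -1.46 ± 0.90 did not pass (adjusted p = 0.232). The import receptors Pex5 and Pex7, which bring enzymes in from the cytosol, averaged 52.1 and 22.2 CPM in BM, against 49.6 and 21.5 CPM in AM. None of the 12 peroxins other than Pex11a passed. Their log2 fold changes ran from -2.32 ± 1.41 (Pex3, a docking site for membrane protein insertion) to 1.60 ± 1.32 (Pex10, part of the ubiquitin ligase that recycles the import receptor).

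The enzymes of beta-oxidation gave most of the calls. Acaa1b (ENSMUSG00000010651, chr9:119148023-119157093) had 4.15, 3.02, 0.285, 3.64 and 0 CPM in BM day 1 libraries, against 32.8, 22.1, 132 and 65.4 CPM in AM day 1 libraries. The groups did not overlap, although the AM libraries themselves spread widely (log2 fold change -4.82 ± 0.98, adjusted p = 0.000866). Acaa1a (ENSMUSG00000036138, chr9:119339676-119350299), which encodes the same enzyme activity, had 125, 204, 134, 187 and 138 CPM in BM, against 269.7, 369.6, 289 and 297 CPM in AM. It was thus abundant in both, and lower in every BM library, with a change of -0.96 ± 0.20 (adjusted p = 0.000507). The 2 thiolase genes share sequence: 30.5% of the 50-base words of Acaa1b transcripts also occur in Acaa1a transcripts and 12.4% of those of Acaa1a in Acaa1b, so the division of reads between them is uncertain to that extent. Ech1 (ENSMUSG00000053898, chr7:28825217-28832247), which acts on fatty acids with double bonds, had 38.3, 36.1, 36.8, 25.4 and 29.4 CPM in BM, against 97.7, 149, 131 and 148 CPM in AM. The BM libraries were close together and all below AM (-1.98 ± 0.22, adjusted p = 9.02e-08).

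Pecr (ENSMUSG00000026189, chr1:72259167-72284314), an enoyl-CoA reductase of peroxisomes, had 0 counts in all 5 BM day 1 libraries, against 7.31, 7.77, 3.54 and 11.9 CPM in AM day 1 libraries. It was called, and with a floor of 3 counts over the BM libraries the level was at least 197-fold lower in BM. Ehhadh, the second multifunctional enzyme of the pathway, had 3.69, 1.56, 0, 4.06 and 0 CPM in BM, against 14.7, 12.1, 17.8 and 29.3 CPM in AM. The groups did not overlap, and the change of -3.31 ± 1.24 passed narrowly (adjusted p = 0.0465). Its call was lost when any of 20 of the 26 libraries was left out (adjusted p up to 0.0959). Acox3, an oxidase for branched-chain fatty acids, had 91.2, 89.8, 45.5, 67.2 and 74.1 CPM in BM, against 124, 121, 145 and 124 CPM in AM, without overlap (-0.80 ± 0.19, adjusted p = 0.00219). Hsd17b4 missed the threshold (-0.67 ± 0.26, adjusted p = 0.0537), and the other 5 oxidation enzymes (Scp2, Decr2, Amacr, Phyh and Hacl1) had adjusted p-values from 0.325 to 0.898.

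Of the transporters, Abcd2, which carries very long chain fatty acyl-CoA into the peroxisome, had 6.78, 20.7, 0, 25.4 and 16.5 CPM in BM day 1 libraries, against 121, 68.6, 112 and 151 CPM in AM day 1 libraries. The highest BM library was below the lowest AM library (-3.03 ± 0.87, adjusted p = 0.0131). When the sum of the Y-linked genes was added to the fit, the call was lost (adjusted p = 0.0881). Its relative Abcd3 had a log2 fold change of -1.52 ± 0.65 and did not pass (adjusted p = 0.0804). All 7 transporters had a negative fold change in edgeR, and Slc25a17, the carrier for coenzyme A and nucleotides, was nearest to 0 at -0.01 ± 0.62. In DESeq2, Slc25a17 was at 0.04 and Pxmp4 at 0.0008, so the shared sign did not hold there. The share of all genes with a negative fold change was not counted. Agps, which makes the ether bond of ether lipids, had 189.6, 165, 176, 184 and 135 CPM in BM, against 107, 77.2, 81.6 and 129 CPM in AM. The lowest BM library stood just above the highest AM library, the change was 0.78 ± 0.30 (adjusted p = 0.0485), and the call was lost when any of 17 of the 26 libraries was left out (adjusted p up to 0.13). Far1 had a log2 fold change of -0.50 ± 0.20 and did not pass (adjusted p = 0.058).

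Catalase (Cat) had 43.3, 38.4, 103, 32.9 and 40.2 CPM in BM day 1 libraries, against 112, 80.9, 77.0 and 114 CPM in AM day 1 libraries. BM library 3 lay among the AM libraries and the other 4 lay below them all (-0.89 ± 0.27, adjusted p = 0.0173). Without BM day 1 library 3 and BM day 3 library 1 the change was -1.32. The call was lost without AM day 1 library 1 (adjusted p = 0.0601), AM day 1 library 4 (0.0519) or BM day 1 library 4 (0.0527).

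**Figure D2:**
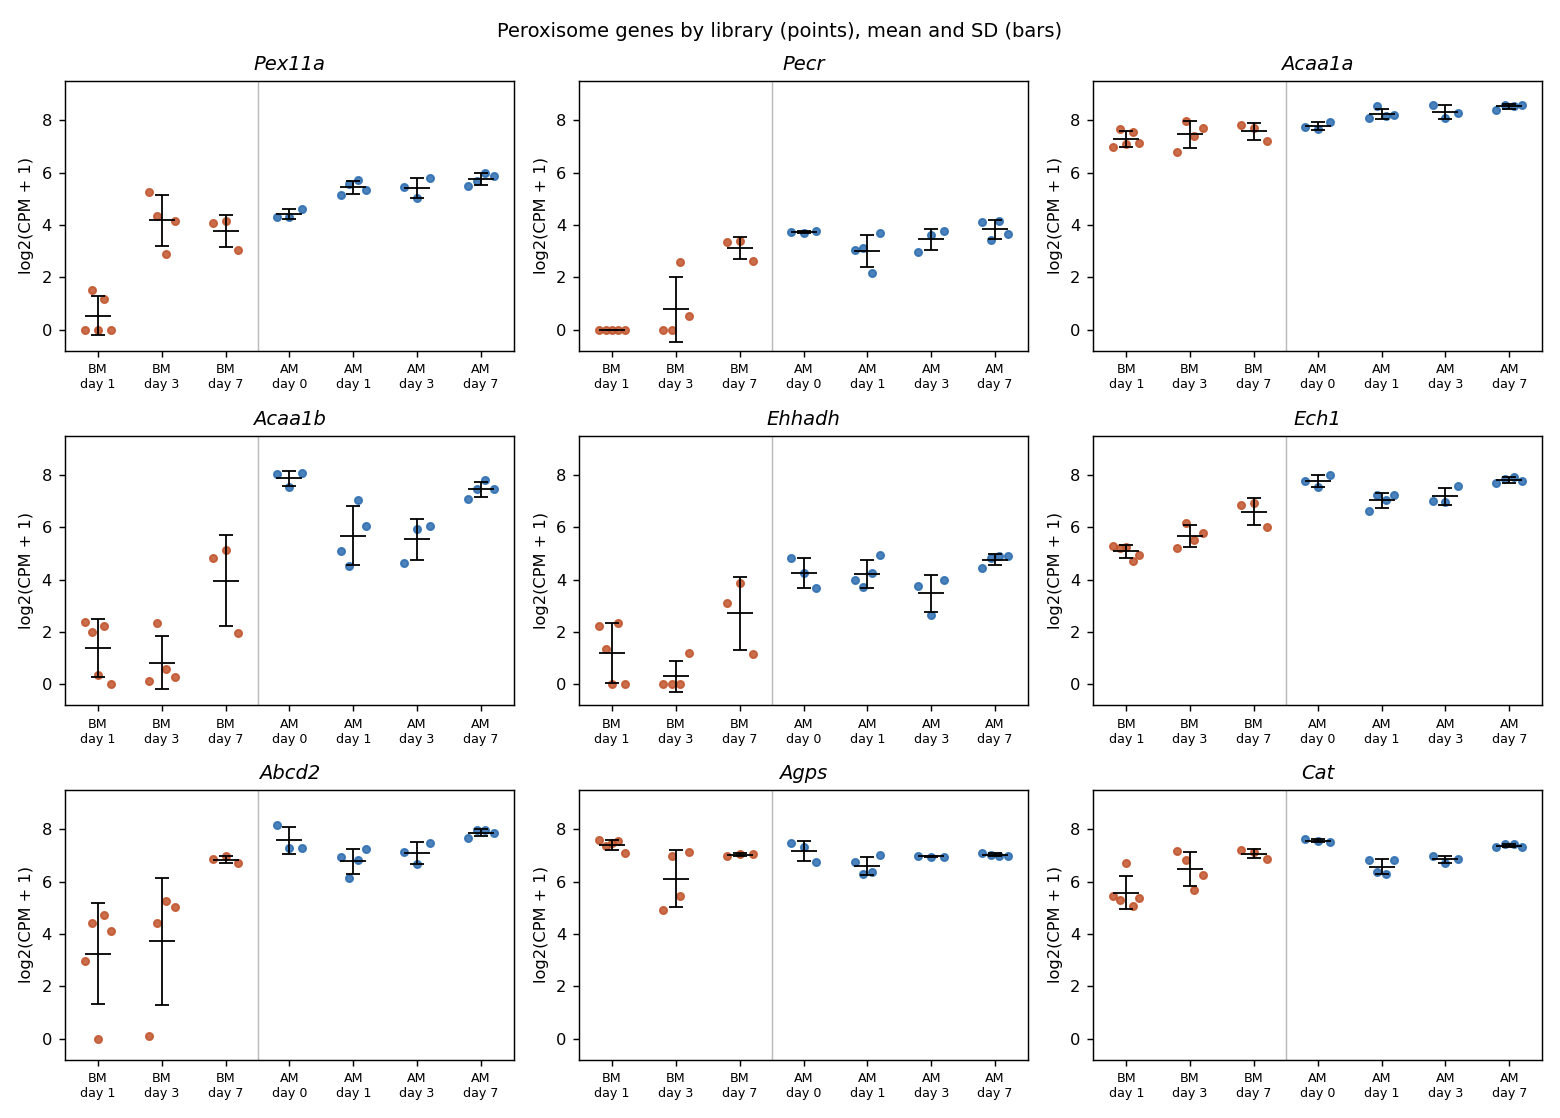
Level of 9 genes in every library, as log2(CPM + 1). Each point is a library, bars give the mean and SD, and BM groups (orange) stand left of AM groups (blue); Pecr lies at 0 in all 5 BM day 1 libraries, Pex11a at or below 1.88 CPM in them, and Acaa1a at 125 CPM or above in the same libraries.

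At day 3 both thiolase genes and Ech1 were lower in BM than in AM. Of the 36, 3 passed, all lower, where 3.98% of all genes passed, 0.997% higher and 2.99% lower. Acaa1b had 0.0825, 4.02, 0.513 and 0.219 CPM in BM day 3 libraries, against 23.8, 60.2 and 64.4 CPM in AM day 3 libraries. No BM library came near the lowest AM library (-5.30 ± 1.13, adjusted p = 0.0105). Ech1 had 36.1, 71.0, 44.3 and 53.3 CPM in BM, against 128, 124 and 187 CPM in AM, also without overlap (-1.51 ± 0.24, adjusted p = 0.00063). Acaa1a had 110.5, 254, 167 and 209 CPM in BM, against 387, 274 and 306 CPM in AM. The highest BM library stood just below the lowest AM library (-0.80 ± 0.22, adjusted p = 0.0386), and the call was lost when any of 11 of the 26 libraries was left out (adjusted p up to 0.201). Within the lower range of library numbers (2 BM and 1 AM) and of the higher range (2 BM and 2 AM), the difference of mean log2(CPM + 1) was -4.81 and -4.84 for Acaa1b, -1.86 and -1.36 for Ech1 and -0.86 and -0.80 for Acaa1a. In a fit to the 2 day 3 groups alone none of the 36 passed, where 0.0472% of all genes did.

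Other genes had lower values in BM at day 3 without passing. Ehhadh had 0, 0, 0 and 1.31 CPM in BM day 3 libraries, against 12.5, 5.33 and 14.8 CPM in AM day 3 libraries (adjusted p = 0.0585). Abcd2 had 0.0825, 20.4, 37.7 and 32.1 CPM in BM, against 141, 100.4 and 178 CPM in AM (-2.63 ± 0.96, adjusted p = 0.125). In both the groups did not overlap. Pex11a, in contrast to day 1, had 37.5, 19.5, 6.50 and 17.0 CPM in BM, against 42.4, 31.5 and 54.1 CPM in AM, and the groups overlapped (-1.09 ± 0.86, adjusted p = 0.556). Pex16 had 0, 36.3, 20.8 and 17.2 CPM in BM, against 39.2, 30.2 and 43.6 CPM in AM, and also overlapped (-1.02 ± 1.01, adjusted p = 0.689). Pxmp2, a channel-forming protein of the peroxisomal membrane, had 0 counts in all 4 BM day 3 libraries, against a mean of 0.800 CPM in AM day 3 libraries, at least 19.9-fold lower, but it was not called (adjusted p = 0.0677). None of the 13 peroxins passed, and 10 of the 13 had a negative fold change. The share of all genes with a negative fold change was not counted. In BM day 3 library 1, Pex3, Pex6, Pex10, Pex11g, Pex14, Pex16 and Pex26 were at 0 counts, and the part of that library in these signs was not tested.

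At day 7 Acaa1a and Ech1 were lower in BM than in AM, and the 13 peroxins had a median log2 fold change of -0.0089. The mean log2(CPM + 1) of the peroxins was 4.30 in BM, against 4.50 in AM. At the earlier days their gap was wider, with 3.57 against 4.36 at day 1 and 3.39 against 4.52 at day 3. Single libraries lowered these BM means. BM day 1 library 3 was at 2.87 (3.57 to 4.01 in the others) and BM day 3 library 1 at 1.98 (3.42 to 4.32 in the others). Of the 36, 2 passed at day 7, both lower, where 1.77% of all genes passed, 1.48% higher and 0.286% lower. Acaa1a had 225, 209.5 and 147 CPM in BM day 7 libraries, against 338, 387, 373 and 384 CPM in AM day 7 libraries. Ech1 had 114, 121 and 62.9 CPM in BM, against 205, 230.0, 242 and 217 CPM in AM. Neither gene overlapped, with changes of -0.93 ± 0.23 for Acaa1a (adjusted p = 0.0251) and -1.17 ± 0.25 for Ech1 (adjusted p = 0.00701). BM library 3 was the lowest for both, and without it the changes were -0.78 (adjusted p = 0.272) for Acaa1a and -0.93 (adjusted p = 0.121) for Ech1, so neither was called. The call of Acaa1a was also lost without AM day 7 library 2 (adjusted p = 0.0715), AM day 7 library 3 (0.071), AM day 7 library 4 (0.0761) or BM day 7 library 2 (0.0703). In a fit to the 2 day 7 groups alone, 15 of the 36 passed, 2 higher and 13 lower, where 20.4% of all genes did, and without BM day 1 library 3 and BM day 3 library 1, 4 passed, all lower, where 3.54% did.

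Acaa1b showed the widest split among the BM day 7 libraries, at 27.04, 33.9 and 2.88 CPM, against 135, 174, 219.7 and 175 CPM in AM day 7 libraries. The library at 2.88 CPM was BM library 3, the one with 3837 CPM of alveolar macrophage markers, against 16311 and 17199 CPM in the other 2; the part of those markers in the result was not tested. Acaa1b did not pass (-3.04 ± 1.10, adjusted p = 0.285), although the groups did not overlap. Ehhadh followed the same order with 7.62, 13.7 and 1.24 CPM in BM, against 20.7, 27.1, 28.5 and 29.0 CPM in AM (adjusted p = 1). Pex11a had 15.97, 16.7 and 7.31 CPM in BM, against 43.8, 50.1, 63.0 and 57.6 CPM in AM (-2.01 ± 0.92, adjusted p = 0.553). Abcd2 had 114, 125 and 104 CPM in BM, against 204, 247, 252 and 229 CPM in AM (-1.03 ± 0.96, adjusted p = 1). For these 3 genes as well the BM libraries lay below all AM libraries, but none passed. The share of all genes without overlap was not counted, so this does not set the 3 apart. Agps, higher in BM at day 1, had 125, 133 and 133 CPM in BM, against 137, 130.2, 124 and 125 CPM in AM, with overlap (0.01 ± 0.33, adjusted p = 1).

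**Figure D3:**
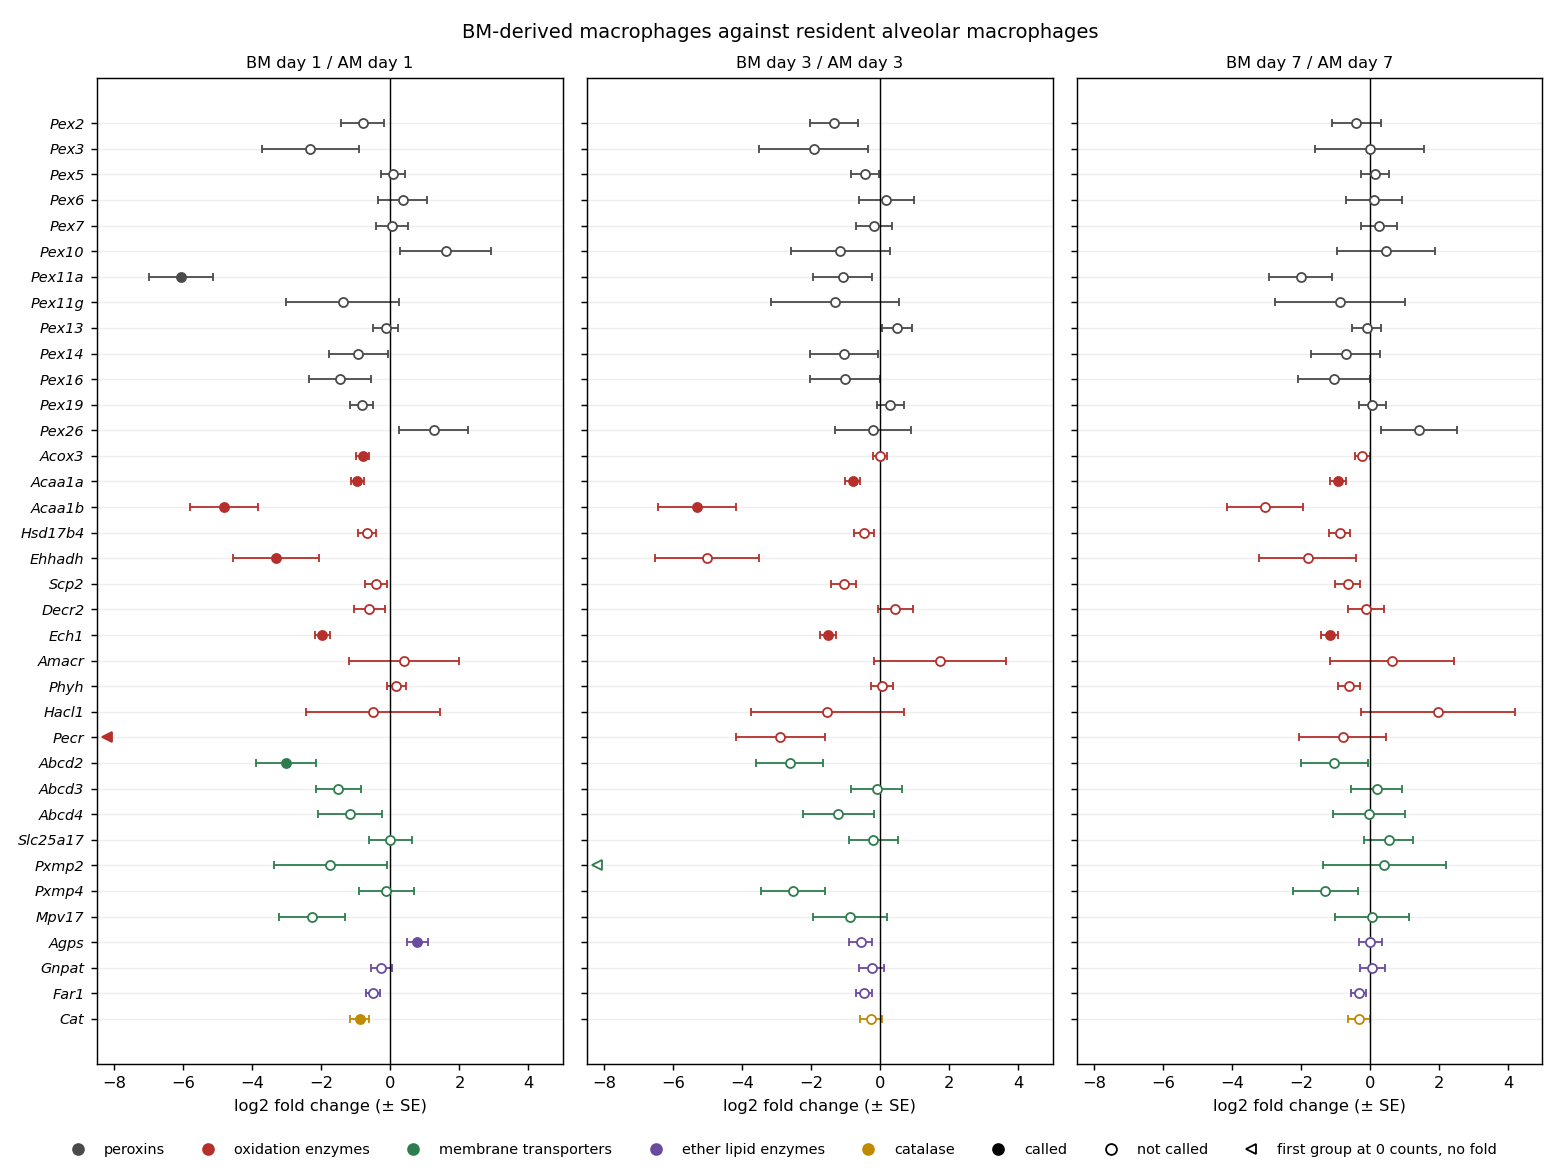
Log2 fold change (± SE) of all 36 genes, BM over AM, at days 1, 3 and 7. Filled points passed an adjusted p under 0.05, triangles mark a gene at 0 counts in all BM libraries with no fold drawn, and colours mark the classes; 10, 3 and 2 genes passed at days 1, 3 and 7, and Acaa1a and Ech1 passed at all 3.

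In resident AM at day 1 after LPS, 3 enzymes of peroxisomal oxidation were lower than in untreated AM, and no peroxin passed. Of the 36 genes, 3 passed in AM day 1 against day 0, all lower and all oxidation enzymes, where 6.28% of all genes passed, 3.22% higher and 3.06% lower. The median log2 fold change was -0.72 for the 12 oxidation enzymes and 0.13 for the 13 peroxins, against -0.20 for all genes. Hsd17b4, which carries out the middle steps of beta-oxidation, had 92.5, 79.1, 142 and 153 CPM in AM day 1 libraries, against 317, 268 and 243 CPM in AM day 0 libraries. Scp2, which holds the thiolase for branched chains, had 85.6, 79.5, 98.6 and 169 CPM at day 1, against 258, 238 and 266 CPM at day 0. Acox3 had 124, 121, 145 and 124 CPM at day 1, against 239, 221 and 206 CPM at day 0. None of the 3 overlapped between the days. The changes were -1.24 ± 0.29 for Hsd17b4 (adjusted p = 0.00807), -1.23 ± 0.36 for Scp2 (adjusted p = 0.0369) and -0.79 ± 0.21 for Acox3 (adjusted p = 0.0229). Scp2 shares 29.7% of its 50-base words with the pseudogene Scp2-ps2, so its count is uncertain to that extent.

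These 3 calls depended on single libraries. Without AM day 0 library 1 none of the 36 passed, and the adjusted p was 0.0622 for Hsd17b4, 0.121 for Scp2 and 0.123 for Acox3, with changes of -1.13, -1.22 and -0.73. Scp2 was also lost without AM day 0 library 2 (adjusted p = 0.0938) or 3 (0.101), or without AM day 1 library 1 (0.101), 2 (0.128) or 3 (0.0845). Acox3 was also lost without AM day 0 library 2 (0.0828) or AM day 1 library 1 (0.0539) or 2 (0.0659). Without BM day 1 library 3 and BM day 3 library 1, 6 of the 36 passed, all lower, where 14% of all genes did. These 2 libraries are in neither group. They enter the tests through the filter, the scaling, the shared estimate of spread and the adjustment of p-values.

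Catalase had 112, 80.9, 77.0 and 114 CPM in AM day 1 libraries, against 194, 188 and 182 CPM in AM day 0 libraries, without overlap, and just missed the threshold (-0.97 ± 0.31, adjusted p = 0.0604). Ech1 had 97.7, 149, 131 and 148 CPM at day 1, against 216, 185 and 256 CPM at day 0 (-0.74 ± 0.24, adjusted p = 0.0655). Both were lower in every day 1 library than in any day 0 library. Acaa1b had 32.8, 22.1, 132 and 65.4 CPM at day 1, against 257, 184 and 266 CPM at day 0 (-1.90 ± 0.98, adjusted p = 0.279). Acaa1a stood apart from its neighbour with 269.7, 369.6, 289 and 297 CPM at day 1, against 212, 204 and 245 CPM at day 0 (0.48 ± 0.23, adjusted p = 0.223). Neither thiolase gene overlapped between the days, in opposite directions, and neither passed. Pex11a had 34.7, 46.1, 51.7 and 39.8 CPM at day 1, against 19.1, 18.9 and 23.6 CPM at day 0, also without overlap (1.07 ± 0.89, adjusted p = 0.588). Pxmp4, a peroxisomal membrane protein, was at 20.9% of its day 0 mean (-2.25 ± 0.92, adjusted p = 0.149).

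At the later days no gene passed. None of the 36 passed at day 3 against day 0, where 2.51% of all genes passed, 1.78% higher and 0.723% lower. None passed at day 7 against day 0 either, where 0.677% of all genes passed, 0.408% higher and 0.268% lower. In edgeR 5 and 1 of the 36 had an unadjusted p under 0.05 in these comparisons, and in DESeq2 1 and 0 passed. The share of all genes with an unadjusted p under 0.05 was not counted, so the 5 and 1 have no background. Cat had 125, 104 and 116 CPM in AM day 3 libraries and 158, 171, 174 and 159 CPM in AM day 7 libraries, against 194, 188 and 182 CPM at day 0. Hsd17b4 had 123, 143 and 164 CPM at day 3 and 206, 181, 201 and 190.4 CPM at day 7, against 317, 268 and 243 CPM at day 0. Both genes lay below day 0 in every library of either day. Acaa1b had 23.8, 60.2 and 64.4 CPM at day 3 and 135, 174, 219.7 and 175 CPM at day 7, against 257, 184 and 266 CPM at day 0, so day 7 overlapped day 0 and day 3 did not. Acaa1a had 387, 274 and 306 CPM at day 3 and 338, 387, 373 and 384 CPM at day 7, against 212, 204 and 245 CPM at day 0, above it in every library (0.75 ± 0.23 at day 7, adjusted p = 0.212). Pex11a, at 42.4, 31.5 and 54.1 CPM at day 3 and 43.8, 50.1, 63.0 and 57.6 CPM at day 7, also stayed above its 3 day 0 libraries. In fits to the compared groups alone 6 of the 36 passed at day 3 and 5 at day 7, where 15.9% and 16.9% of all genes did.

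Between successive days within AM none of the 36 passed. In day 3 against day 1, 0.834% of all genes passed, 0.624% higher and 0.21% lower, and 2 of the 36 had an unadjusted p under 0.05. In day 7 against day 3, 1.59% of all genes passed, 0.233% higher and 1.35% lower, and 1 of the 36, Ech1, had an unadjusted p under 0.05 (0.61 ± 0.25, adjusted p = 0.444). The share of all genes with an unadjusted p under 0.05 was not counted. DESeq2 called none of the 36 in either comparison. In the fit to the day 7 and day 3 groups alone, 9 of the 36 passed, all higher, where 16.6% of all genes did. Scp2 had 203, 172 and 232 CPM in AM day 3 libraries, against 85.6, 79.5, 98.6 and 169 CPM in AM day 1 libraries, without overlap (0.91 ± 0.36, adjusted p = 0.306).

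**Figure D4:**
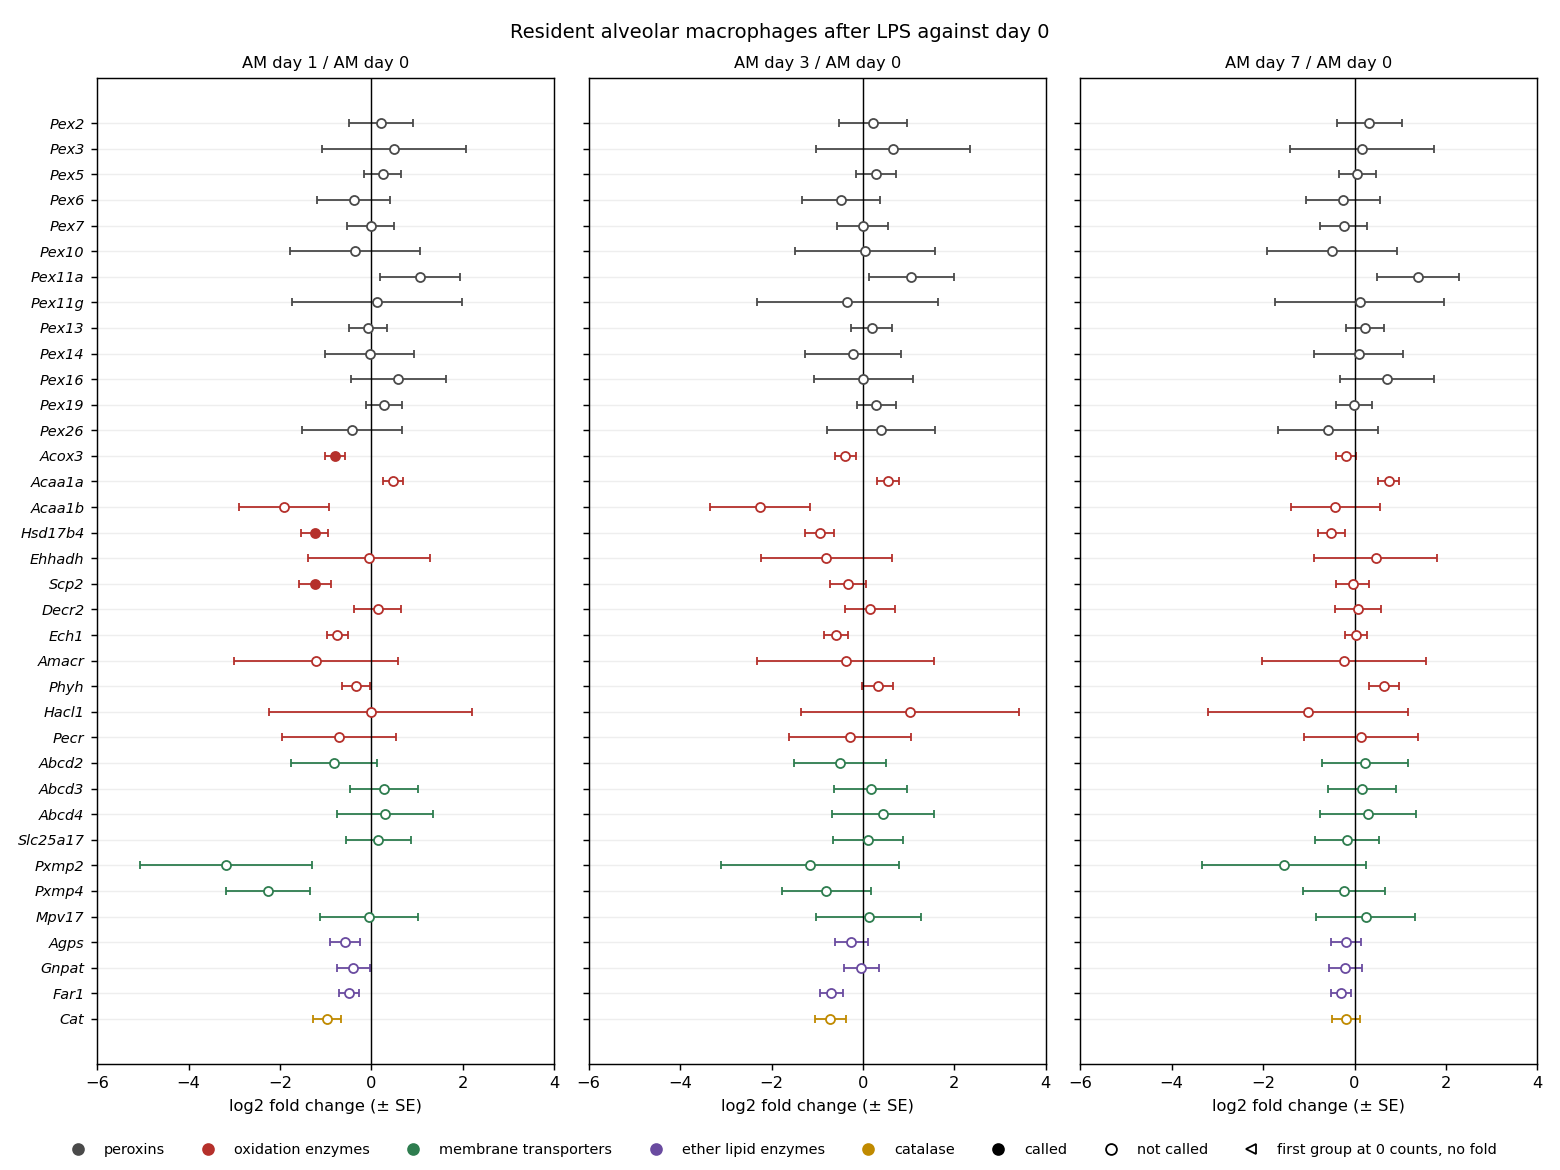
Log2 fold change (± SE) of all 36 genes in AM at days 1, 3 and 7 after LPS over AM at day 0. Filled points passed an adjusted p under 0.05 and colours mark the classes; Hsd17b4, Scp2 and Acox3 passed at day 1 with changes of -1.24, -1.23 and -0.79, and none passed at days 3 and 7.

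Within BM, Pex11a, Acox3 and Pecr rose at day 3 relative to day 1. Of the 36, 7 passed in BM day 3 against day 1, 6 higher and 1 lower, where 25.9% of all genes passed, 10.6% higher and 15.2% lower. Pex11a had 37.5, 19.5, 6.50 and 17.0 CPM in BM day 3 libraries, against 0, 1.88, 0, 1.24 and 0 CPM in BM day 1 libraries, with every day 3 library above every day 1 library (4.97 ± 0.88, adjusted p = 0.000188). Acox3 had 139.7, 149, 249.7 and 137 CPM at day 3, against 91.2, 89.8, 45.5, 67.2 and 74.1 CPM at day 1 (1.20 ± 0.19, adjusted p = 4.86e-05). Neither overlapped. Pecr had 0, 0, 5.00 and 0.438 CPM at day 3, against 0 counts in all 5 day 1 libraries, at least 35.1-fold higher, with nearly all of it in day 3 library 3. Pex19, which carries new membrane proteins, had 31.2, 69.8, 68.2 and 66.5 CPM at day 3, against 23.5, 26.8, 7.28, 34.02 and 41.4 CPM at day 1 (1.15 ± 0.34, adjusted p = 0.0179). Only day 3 library 1 lay within the day 1 range.

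Ech1, Cat and Agps also passed, with overlap between the days. Ech1 had 36.1, 71.0, 44.3 and 53.3 CPM in BM day 3 libraries, against 38.3, 36.1, 36.8, 25.4 and 29.4 CPM in BM day 1 libraries (0.62 ± 0.21, adjusted p = 0.0343). Cat had 144, 112, 50.6 and 76.0 CPM at day 3, against 43.3, 38.4, 103, 32.9 and 40.2 CPM at day 1 (0.89 ± 0.27, adjusted p = 0.0214). Agps, the 1 gene that fell, had 29.0, 124, 43.3 and 138 CPM at day 3, against 189.6, 165, 176, 184 and 135 CPM at day 1 (-1.02 ± 0.30, adjusted p = 0.0159), and was not called without BM day 3 library 3 (-0.80, adjusted p = 0.0635). The call of Ech1 was lost without BM day 1 library 4 (0.51, adjusted p = 0.089) or 5 (0.55, 0.0769), or BM day 3 library 2 (0.42, 0.157) or 4 (0.60, 0.0619). That of Cat was lost without BM day 1 library 2 (adjusted p = 0.0514), 4 (0.0544) or 5 (0.0513), or BM day 3 library 1 (0.64, 0.0815) or 2 (0.0542). In the fit to these 2 groups alone 1 of the 36 passed, where 8.87% of all genes did.

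In BM day 7 against day 3, 2 of the 36 passed, both higher, where 3.98% of all genes passed, 3.09% higher and 0.898% lower. Acaa1b had 27.04, 33.9 and 2.88 CPM in BM day 7 libraries, against 0.0825, 4.02, 0.513 and 0.219 CPM in BM day 3 libraries (4.09 ± 1.08, adjusted p = 0.0352). Ech1 had 114, 121 and 62.9 CPM at day 7, against 36.1, 71.0, 44.3 and 53.3 CPM at day 3 (0.96 ± 0.24, adjusted p = 0.0216). In both, BM day 7 library 3 lay within the day 3 range and the other 2 libraries, which hold more of the alveolar macrophage markers, lay above it. Within the lower range of library numbers (1 day 7 and 2 day 3 libraries) the difference of mean log2(CPM + 1) was 0.74 for Acaa1b and 0.31 for Ech1, and within the higher range (2 and 2) it was 4.53 and 1.26. With BM day 7 library 3 as the only day 7 library none of the 36 passed. None passed either without BM day 7 library 1, BM day 7 library 2 or BM day 3 library 1. For Ech1 the adjusted p was then 0.126, 0.147 and 0.0509, and it was 0.0587 without BM day 3 library 3. The call of Acaa1b was lost when any of 11 of the 26 libraries was left out, with adjusted p-values up to 0.139. Abcd2 had 114, 125 and 104 CPM at day 7, against 0.0825, 20.4, 37.7 and 32.1 CPM at day 3, without overlap and without passing (2.34 ± 0.96, adjusted p = 0.162).

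The gap between BM and AM itself differed between days for few of the 36. In the test of whether the BM to AM difference at day 7 differed from that at day 1, 2 of the 36 passed, both higher, where 7.54% of all genes passed, 4.61% higher and 2.93% lower. Pex11a was at 4.06 ± 1.18 on the log2 scale (adjusted p = 0.0319), with 15.97, 16.7 and 7.31 CPM in BM and 43.8, 50.1, 63.0 and 57.6 CPM in AM at day 7, where BM day 1 libraries had at most 1.88 CPM. The call was lost when any of 7 of the 26 libraries was left out (adjusted p up to 0.0798). Pecr was the other, but BM day 1 libraries had 0 counts, so the size of its fitted value of 9.60 depends on the prior count. It had 9.12, 9.43 and 5.15 CPM in BM and 16.4, 9.68, 16.9 and 11.7 CPM in AM at day 7, with every BM library below every AM library (-0.79 ± 1.27, adjusted p = 1). In the same test of day 7 against day 3 none of the 36 passed, where 0.362% of all genes passed, 0.338% higher and 0.0233% lower. In that test 1 of the 36 had an unadjusted p under 0.05 in edgeR, where the share of all genes was not counted, and DESeq2 called none.

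Peroxisome genes outside the 36 were read from a list of 40 others, of which 30 passed the filter. In BM against AM at day 1, 2 of the 30 were higher and 9 lower, where 15.2% of all genes were higher and 13.8% lower. Xdh, xanthine dehydrogenase, was higher in BM at 536 CPM, against 147 CPM in AM (1.87 ± 0.26, adjusted p = 3.26e-06). Idh1, an isocitrate dehydrogenase of the cytosol and peroxisomes, was lower in BM at day 3, at 99.6 CPM, against 265 CPM in AM (-1.41 ± 0.34, adjusted p = 0.0171). In AM at day 1 against day 0, 2 of the 30 passed, where 6.28% of all genes did, and both were higher: Xdh and Prdx5, a peroxiredoxin that removes peroxides, which averaged 1485 CPM at day 1, against 287 CPM at day 0 (2.37 ± 0.28, adjusted p = 2.05e-06). The antioxidant Prdx5 thus rose in the comparison in which catalase was lower without passing.

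Of 18 genes of mitochondrial fatty acid oxidation, all tested, 12 were lower and none higher in BM against AM at day 1, where 13.8% of all genes were lower (median log2 fold change -1.25 for the 18), the comparison in which 6 of the 12 peroxisomal oxidation enzymes were lower (median -0.74). In AM at day 1 against day 0, 1 of the 18 was higher and 1 lower (median -0.01), against 3.22% and 3.06% of all genes, where 3 of the 12 peroxisomal enzymes were lower (median -0.72). In BM day 3 against day 1, 9 of the 18 and 3 of the 12 were higher, against 10.6% of all genes. The difference between the 2 pathways was not tested.

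Of the 36 genes, 17 had their lowest group mean in BM day 1 libraries and 12 in BM day 3 libraries, while 10 had their highest in AM day 0 libraries and 10 in AM day 7 libraries. Among the 12 oxidation enzymes, 7 were lowest in BM day 1 libraries, 4 were highest in AM day 0 libraries and 5 in AM day 7 libraries. Among the 13 peroxins, 4 were lowest and 4 were highest in BM day 1 libraries. The same counts were not made for all genes, so they do not set the 36 apart. BM day 1 library 3 and BM day 3 library 1 had 9015 and 7414 genes over 1 CPM, and each had 14 of the 36 at 0 counts. As a share of its mean in untreated AM, Hsd17b4 was at 26.6% in BM day 1, 38.5% in BM day 7 and 70.4% in AM day 7 libraries. Ech1 was at 15.2% in BM day 1, 23.3% in BM day 3 and 45.3% in BM day 7 libraries, and at 102% in AM day 7 libraries. Acaa1a was at 71.5% in BM day 1 and 168% in AM day 7 libraries. Amacr, a racemase for branched chains, rested on few reads, with 25.9 CPM in BM day 3 library 3 and at most 6.05 CPM in any other library. Hacl1 did not exceed 2.03 CPM in any library, and 27.4% of its 50-base words are shared with the gene model Gm49387. Exons of other genes on the opposite strand overlap 41.1% of the exon length of Pex11g and 28.3% of that of Pex14, and the strand setting of the counting is not given in the sources used here, so the counts of these 2 peroxins could hold reads of those genes.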

How the data were processed

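RNA from 26 libraries of mouse lung macrophages in 7 groups was measured by stranded poly(A) sequencing, per the labels. The deposited values are raw counts per gene. The submitters' processing notes name the build GRCm38, HISAT2 2.1.0 and featureCounts 2.0.0, and for the reads Trimmomatic 0.39 and FastQC 0.11.9; the annotation release and the strand setting of the counting are not given in the sources used here. Symbols, positions and exon lengths were taken from GENCODE for GRCm38, and promoters from RefSeq. The 36 genes and all other lists were chosen with earlier results of these data known.

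Genes were filtered with edgeR's filterByExpr at a minimum count of 10, which kept 17143. Counts were scaled by TMM and fitted in R 4.3.3 with edgeR 4.0.16 (robust quasi-likelihood, 1 coefficient for each of 7 groups, all 26 libraries), and 12 comparisons were tested, 2 of them of differences between days. P-values were adjusted by the Benjamini-Hochberg method over all tested genes, with calls at an adjusted p under 0.05. Levels are CPM, and RPKM where genes are compared with each other. A fold against a group at 0 counts was bounded with 3 counts over that group. Differences within number ranges used log2(CPM + 1). The share of all genes without overlap between groups was not counted in any comparison, so a lack of overlap alone does not set a gene apart. Alternatives were DESeq2 1.42.0, other scalings and filters, fits to the compared groups alone, replicate blocks, covariates and leaving out libraries. The code was tested on simulated counts with known changes. Library totals of 9176202 to 80816742 counts set the counting precision, and the labels name no molecular identifiers, so floors cover counting error only. Libraries of 1 group differed by more than sampling noise, so none was counted as a repeat deposit. The genes given in every library by rule were, in each class, up to 4 with the largest called change in BM against AM or in AM day 1 against day 0 (with 5 CPM or more in the group where it was higher), together with the most abundant per length. Other genes given with values were chosen after these were seen. A further gene that the same rule selects from the list of other peroxisome genes is not reported here.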

Additional observations from a re-analysis of the deposited data

Results flagged for a closer look

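In groups of 4 or 5 libraries that reached 5 CPM, 15 of 125 sets of values had 1 library far from the others by Dixon's criterion at its 95% value; chance gives about 1 in 20. Of these, 5 were BM day 3 library 1: Pex19 at 31.2 CPM, Abcd2 at 0.0825 CPM, Slc25a17 at 0.0825 CPM, Mpv17 at 0 CPM and Gnpat at 14.9 CPM. In 4 it was BM day 1 library 3: Pex5 at 15.7 CPM, Pex16 at 0 CPM, Abcd3 at 0 CPM and Cat at 103 CPM. In 3 it was AM day 1 library 3: Pex3 at 0 CPM, Acox3 at 145 CPM and Gnpat at 42.6 CPM. The others were Acox3 at 250 CPM in BM day 3 library 3, Phyh at 59.7 CPM in AM day 7 library 2 and Slc25a17 at 48.3 CPM in AM day 1 library 2.

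The BM to AM difference at day 7 differed from that at day 1 for Pex11a by 4.06 on the log2 scale and for Pecr by 9.60, the last fitted against BM day 1 libraries at 0 counts.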

How the results depend on the processing

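Of 462 recomputed counts of called genes among the 36, 393 were within 1.5 times the reported count, and no log2 fold change of the 29 calls reversed. Genes not called were left out of that check, and some near 0 changed sign. In DESeq2, Agps in BM against AM at day 7 was at -0.02 and Slc25a17 at day 1 at 0.04. A count of 0 against a reported 0 was taken as within, and the comparisons without a call are among the 462. The 393 therefore do not measure how well the calls held. Of the 29 calls, 8 held under every alternative that tested the gene: Pex11a, Acox3, Acaa1a, Acaa1b, Ech1 and Pecr in BM against AM at day 1, and Acox3 and Pecr in BM day 3 against day 1, where Pecr was not tested in the fit to those 2 groups alone. Leaving out 1 library at a time gave 7 to 15 calls for BM against AM at day 1, 2 to 5 at day 3 and 0 to 2 at day 7. It gave 0 to 6 for AM day 1, 0 to 1 for AM day 3 and 0 to 0 for AM day 7 against day 0, 5 to 10 for BM day 3 against day 1, 0 to 3 for BM day 7 against day 3, and 1 to 3 for the test of day 7 against day 1. Without BM day 1 library 3 and BM day 3 library 1 together, 16, 5 and 4 passed for BM against AM at days 1, 3 and 7 (40.4%, 6.13% and 3.54% of all genes), 6, 2 and 1 for AM at days 1, 3 and 7 against day 0 (14%, 4.85% and 1.27%), 1 for AM day 3 against day 1 (2.72%), 4 for BM day 7 against day 3 (5.5%), and 7 for the test of day 7 against day 1 (15.1%). In fits to the compared groups alone, which use fewer libraries and genes, 0 and 15 passed for BM against AM at days 3 and 7 (0.0472% and 20.4% of all genes in the same fits), 7, 6 and 5 for AM at days 1, 3 and 7 against day 0 (13.7%, 15.9% and 16.9%), 9 for AM day 7 against day 3 (16.6%), 1 for BM day 3 against day 1 (8.87%) and 0 for BM day 7 against day 3 (0.308%). DESeq2 called 7 for BM against AM at day 3 (10.7% of all genes), 1 for AM day 3 against day 0 (5.47%) and 4 for BM day 7 against day 3 (8.73%). Scaling by library size alone gave 5 for AM day 1 against day 0, and no filter gave 1 for BM day 7 against day 3. For these counts, the others printed without a share and the ranges with 1 library left out, the share of all genes is not given. Such counts do not separate the 36 from a change in calls over all genes. With the library number range as a term, 1 passed for BM against AM at day 7 and 1 for the test of day 7 against day 1. With the sum of the Y-linked genes in the fit, 1 passed for AM day 7 against day 0, 1 for AM day 7 against day 3, 5 for BM day 7 against day 3 and 1 for the test of day 7 against day 1. Without all BM day 1 libraries, 6 passed for BM against AM at day 3 (6.95%), 1 for AM day 3 against day 0 (3.22%) and 6 for BM day 7 against day 3 (7.32%). With BM day 7 library 3 as the only BM day 7 library, an alternative chosen after seeing the data, 1 passed for BM against AM at day 7, 0 for BM day 7 against day 3 and 1 for the test of day 7 against day 1. Apart from the fits that use fewer libraries or genes, the cause was not tested.

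Over 69 pairs of libraries from different groups with the same title number, the correlation of deviations from the group means was -0.113 to 0.0928. These pairs include different days and were not set against pairs with different numbers. The check therefore cannot decide whether BM and AM libraries of the same day are paired. With the title numbers as a replicate block, 5 passed for BM against AM at day 3, 4 for BM day 7 against day 3 and 1 for the test of day 7 against day 1. The shares of all genes in that fit are not given here. Pecr, Ehhadh, Amacr and Hacl1 rest on few reads per library, which limits what their values can show.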
